A study of Homo sapiens with 24 samples.

Results

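The 10 genes followed here belong to the endoplasmic reticulum (ER) unfolded protein response and were measured across 3 leukemia cell lines and 2 treatments. They are HSPA5, HSP90B1, DNAJB9, SDF2L1, XBP1, HERPUD1, PDIA4, MANF, CRELD2 and HYOU1, taken by their listed symbols, and all 10 were found among the 25728 gene symbols that each library reports. All 10 also passed the filter on low counts that left 14588 genes for testing. RNA came from human acute myeloid leukemia lines, namely UCSD-AML1, UT-7 and TF-1, which the design calls EVI1-driven after the transcription factor encoded at MECOM. TF-1 and UT-7 are growth factor-dependent lines with erythroid and megakaryocytic features, and UCSD-AML1 carries a chromosome 3 rearrangement near MECOM. MECOM itself stood at a mean of 412 CPM with vehicle in UCSD-AML1, 13.03 CPM in TF-1 and 6.34 CPM in UT-7, where CPM is a count relative to the scaled library total. Each line was given either vehicle or 3 mM cyclocreatine, a creatine analog, for 24 h, with 4 libraries in each of the 6 groups and 24 libraries in all. The labels name neither the vehicle nor separate cultures, so every p-value here measures only the spread between these libraries.

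The ER folds proteins bound for the secretory pathway, and the unfolded protein response raises its folding capacity when unfolded chains accumulate. Membrane sensors start it: IRE1 (gene ERN1) splices XBP1 mRNA into the form that encodes an active transcription factor, PERK (gene EIF2AK3) slows translation and favours ATF4, and ATF6 is cut in the Golgi to release a transcription factor. ATF6 and XBP1 act with the CCAAT-binding factor NF-Y on ER stress elements in the promoters of chaperone and degradation genes. Blood progenitors and leukemic cells express this machinery at a basal level, and plasma cells, which secrete antibody, carry far more of it. Counts per gene do not separate spliced from unspliced XBP1 mRNA.

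Because the 10 genes were followed as a group, the stretches of their promoters that hold the letters of ER stress elements are shown first. RefSeq promoter windows on GRCh38.p14 were at hand for all 10 genes (12 windows, each from 250 bases before to 50 bases after an annotated start). The windows were searched on both strands for the ER stress element ERSE, which is CCAAT, any 9 bases and CCACG, and for ERSE-II, which is ATTGG, any 1 base and CCACG. The sequences below run 5′ to 3′ on the strand on which the element reads forward, given in brackets, with 20 bases on either side and the boxes of the element in capitals.
HSPA5 chr9:125241371-125241429 (-): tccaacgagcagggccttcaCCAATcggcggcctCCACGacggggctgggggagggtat
HSP90B1 chr12:103930196-103930254 (+): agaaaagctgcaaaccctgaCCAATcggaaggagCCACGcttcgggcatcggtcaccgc
HSP90B1 chr12:103930301-103930359 (-): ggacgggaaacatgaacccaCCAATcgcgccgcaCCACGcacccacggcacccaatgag
XBP1 chr22:28800583-28800641 (-): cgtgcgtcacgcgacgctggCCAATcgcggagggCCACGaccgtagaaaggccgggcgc
CRELD2 chr22:49918534-49918592 (-): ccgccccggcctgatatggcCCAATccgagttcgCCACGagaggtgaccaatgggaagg
SDF2L1 chr22:21642094-21642144 (-): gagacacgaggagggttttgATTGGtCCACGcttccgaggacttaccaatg
HERPUD1 chr16:56932005-56932055 (+): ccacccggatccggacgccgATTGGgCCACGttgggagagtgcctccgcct
HYOU1 chr11:119057360-119057410 (+): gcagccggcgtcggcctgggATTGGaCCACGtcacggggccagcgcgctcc
HYOU1 chr11:119057254-119057304 (+): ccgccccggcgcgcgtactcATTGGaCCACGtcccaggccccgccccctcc
The first 5 sequences hold ERSE and the last 4 hold ERSE-II. ERSE lay in the windows of HSPA5, HSP90B1 (2 matches), XBP1 and CRELD2, that is 4 of 10 genes, against 0.0916% of the 27305 genes with a window. ERSE-II lay in those of SDF2L1, HERPUD1 and HYOU1 (2 matches), 3 of 10 genes against 0.0696%. Either element was present for 7 of 10 genes against 0.161% of all genes. These elements are known from promoters of genes of this response, so the shares describe the windows and add no support.

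All 9 ERSE and ERSE-II matches lay before the start of transcription. HSP90B1 had ERSE at -194 to -176 and at -89 to -71, counted in bases from the start. ERSE of HSPA5 spanned -66 to -48, that of XBP1 -52 to -34 and that of CRELD2 -80 to -62. SDF2L1 held ERSE-II at -188 to -178 and HERPUD1 at -117 to -107. HYOU1 had ERSE-II at -185 to -175 and at -79 to -69, and its first match overlapped the UPRE core TGACGTGG at -188 to -181. That core was in the windows of 0.927% of genes. No ERSE or ERSE-II letters lay in the windows of DNAJB9, PDIA4 and MANF, which held the CCACG box alone. The box by itself was present for all 10 genes and for 42.1% of genes in all, and it is part of every ERSE and ERSE-II counted here. These are matches of letters, and binding was not measured.

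**Figure D1:**
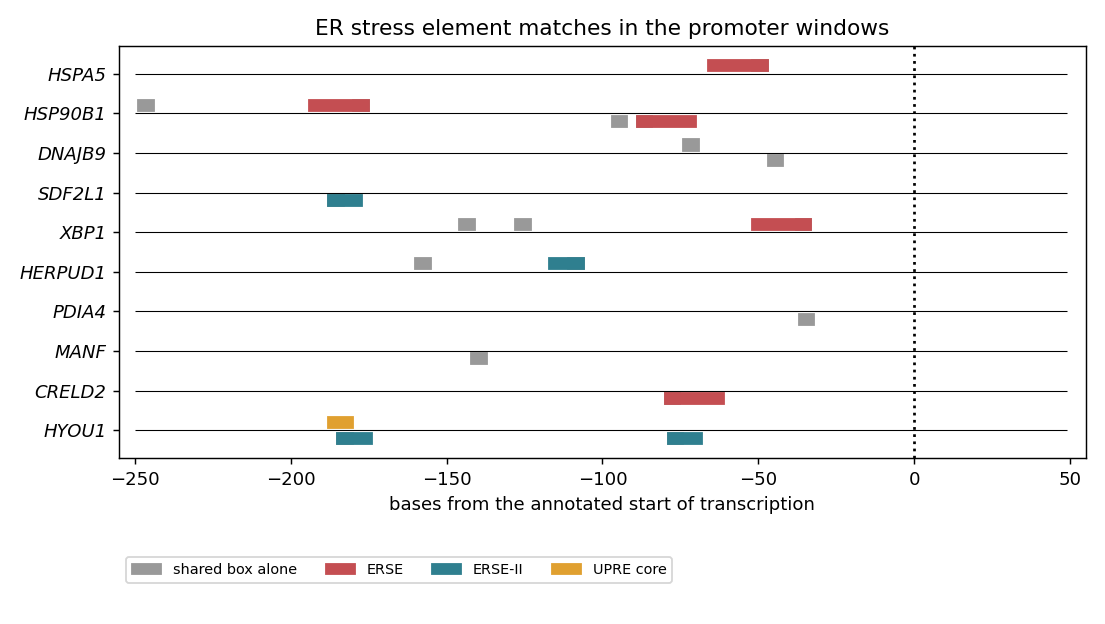
Positions of ERSE, ERSE-II, UPRE core and lone CCACG matches in the main promoter window of each of the 10 genes, in bases from the annotated start of transcription; blocks above a line lie on the gene's strand and those below it on the opposite strand. All 9 ERSE and ERSE-II matches lie upstream of the start, in 7 of the 10 genes.

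Library totals ran from 12794998 to 21200662 counts, and the 10 genes together took 0.152% to 0.236% of them. Levels are CPM, a gene's count relative to its library's TMM-scaled total, as the mean ± SD over n = 4 libraries unless stated. A gene is called higher or lower where the edgeR quasi-likelihood test, adjusted by Benjamini-Hochberg over all 14588 genes of a comparison, gave an adjusted p under 0.05; effects are log2 fold changes ± SE. In TF-1, cyclocreatine replicate 1 stood apart, with 9.37% of its counts on ribosomal protein genes against 7.76% to 7.80% in its 3 group mates, so values without it are given beside the TF-1 results whose call or sign it changes or whose value it moves by over 1.5 times. Of 15 myeloid and erythroid markers, 12 to 15 had a mean of at least 1 CPM, depending on the group. Their summed level ran from 3108 to 4978 CPM. Of 11 stromal and epithelial markers, 7 to 10 were under 1 CPM in each group, and the keratins KRT18 and KRT8 in TF-1 and UCSD-AML1, PDGFRB in UCSD-AML1 and CDH1 in UT-7 made up most of their summed level of 17.7 to 253 CPM.

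Cyclocreatine moved the 10 genes in different directions in the 3 lines. In UT-7, 7 rose, 1 fell and 2 did not pass, with a median log2 fold change of 0.30 (median of all tested genes 0). In UCSD-AML1, 7 fell, none rose and 3 did not pass, with a median of -0.22 (all genes -0.0046). At an unadjusted edgeR p under 0.05, 1 gene (PDIA4) was higher there, and DESeq2 and limma-voom each called 0 higher. In TF-1, 4 rose, 3 fell and 3 did not pass, with a median of 0.064 (all genes -0.0084). HSPA5, HSP90B1, XBP1 and HYOU1 rose in UT-7 and fell in UCSD-AML1, and SDF2L1 fell in every line. The opposite direction in UT-7 and UCSD-AML1 was known when the genes were listed, so these counts describe it and add no support.

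Those counts stand against many changes elsewhere. Of all tested genes, 26.7% were called higher and 29.3% lower in TF-1, 22.5% and 23.3% in UT-7, and 19.1% and 21.3% in UCSD-AML1. The 4 libraries with and the 4 without cyclocreatine did not overlap for 8 of the 10 genes in UT-7, 7 in UCSD-AML1 and 4 in TF-1. The same held for 47.4%, 44.2% and 40.2% of all tested genes. With library totals alone in place of TMM, 3001 genes were called higher and 5225 lower in TF-1, against 3901 and 4272, and the calls for the 10 genes became 3 higher and 3 lower there.

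The summed level of the 10 genes was compared without a test. It went from 2122 ± 37.4 to 2487 ± 60.3 CPM in TF-1, from 1476 ± 15.5 to 1869 ± 20.3 CPM in UT-7 and from 2201 ± 36.8 to 1775 ± 25.2 CPM in UCSD-AML1. The largest parts were HSPA5, HSP90B1 and HYOU1 in TF-1 and UT-7, and HSP90B1, XBP1 and HSPA5 in UCSD-AML1. In bulk RNA, fewer cells with a transcript and less of it per cell cannot be told apart.

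**Figure D2:**
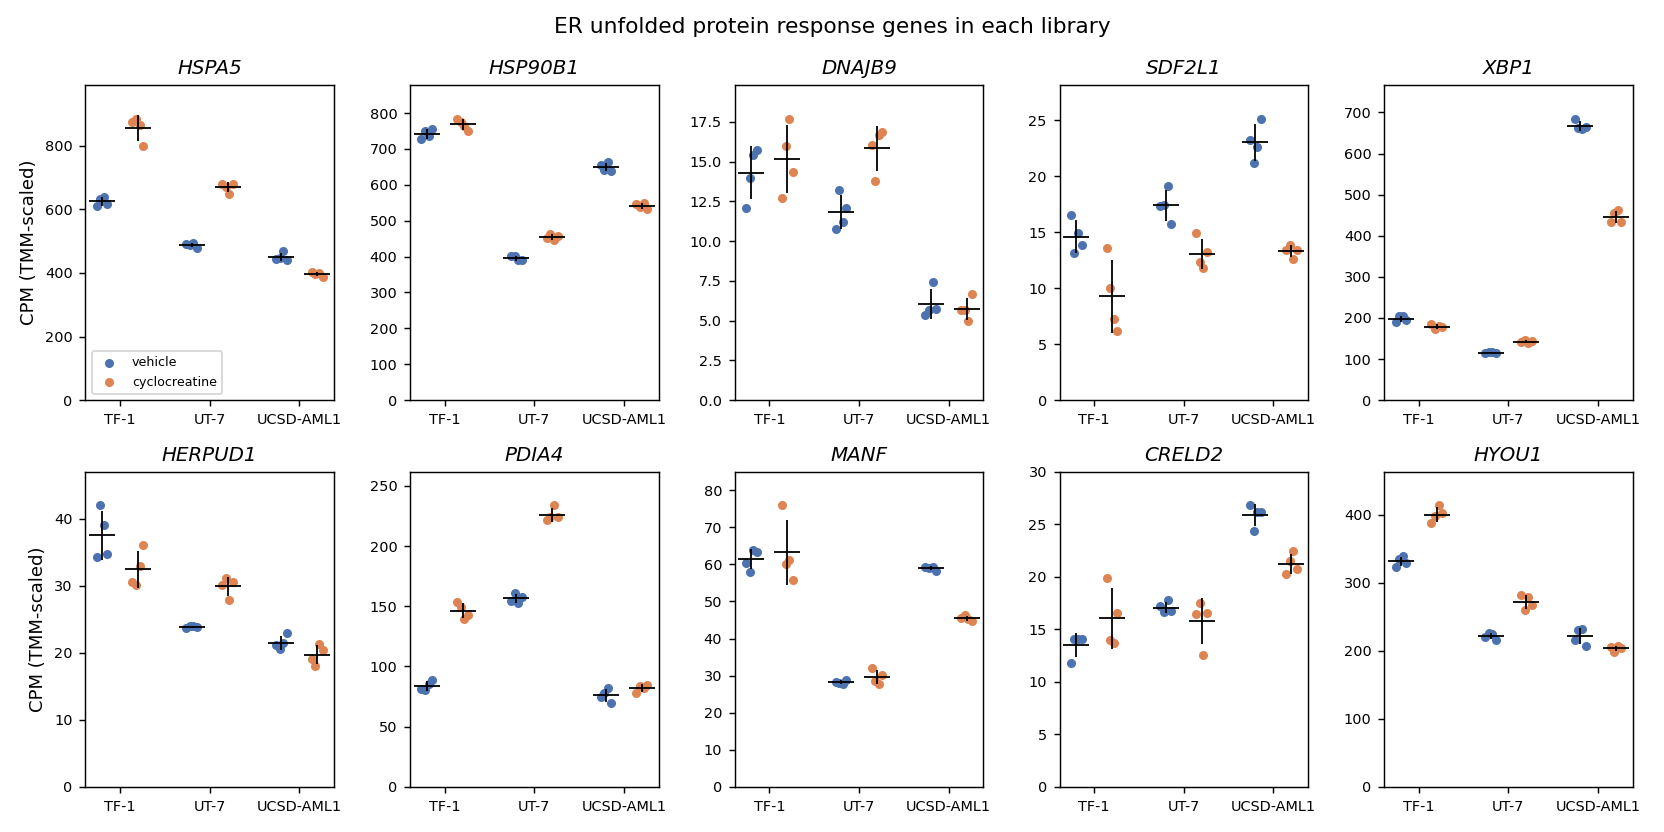
Level of each of the 10 genes in every library (CPM after TMM scaling, each axis from 0), by line and treatment; points are libraries, and the black marks show the mean ± SD of 4. XBP1 stands far higher in UCSD-AML1 than in the other lines, and the vehicle and cyclocreatine points of HSPA5 separate in all 3 lines, downwards in UCSD-AML1.

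HSPA5 encodes BiP, the main HSP70 chaperone of the ER, which also binds the sensors and keeps them inactive. In TF-1 it stood at 612, 632, 640.1 and 617 CPM with vehicle and 877, 886, 865 and 798 CPM with cyclocreatine. In UT-7 its levels were 490.2, 488, 495 and 480.2 CPM with vehicle and 681, 672, 648 and 680.0 CPM with cyclocreatine. UCSD-AML1 libraries gave 444, 448, 470.2 and 439.6 CPM with vehicle and 403, 397, 400.0 and 387 CPM with cyclocreatine. Every treated library lay above every vehicle library in TF-1 and UT-7, and every treated library lay below in UCSD-AML1. The rise was 1.37-fold in TF-1 (0.45 ± 0.032, edgeR adjusted p = 8.10e-15) and 1.37-fold in UT-7 (0.46 ± 0.032, edgeR adjusted p = 1.31e-14), while the fall in UCSD-AML1 was 1.14-fold (-0.18 ± 0.033, edgeR adjusted p = 1.59e-05).

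HSP90B1 encodes GRP94, the ER member of the HSP90 family, which folds integrins and Toll-like receptors. In UT-7 it stood at 401, 402, 389 and 389.8 CPM with vehicle and 452, 462, 446 and 459 CPM with cyclocreatine. In UCSD-AML1 it stood at 655, 640.2, 664 and 639 CPM with vehicle and 546, 538, 551 and 533 CPM with cyclocreatine. The groups did not overlap in either line, with the treated libraries above in UT-7 and below in UCSD-AML1. It rose 1.15-fold in UT-7 (0.20 ± 0.029, edgeR adjusted p = 3.34e-07) and fell 1.20-fold in UCSD-AML1 (-0.26 ± 0.029, edgeR adjusted p = 1.40e-09). Exons of MIR3652, C12orf73 and TTC41P share 2.79%, 2.58% and 2.24% of its exon bases. The TF-1 means, 742 ± 13.4 and 769 ± 14.8 CPM, did not pass (0.051 ± 0.028, edgeR adjusted p = 0.128).

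HYOU1, an HSP110-type ER chaperone that serves BiP as a nucleotide exchange factor, had libraries that separated in every line. Its vehicle libraries spanned 323 to 339 CPM and its treated ones 387 to 413 CPM in TF-1, and the spans in UT-7 were 216 to 226 and 260.0 to 281 CPM. It rose in TF-1 (0.27 ± 0.035, edgeR adjusted p = 2.50e-08) and in UT-7 (0.29 ± 0.036, edgeR adjusted p = 1.30e-08). In UCSD-AML1 it fell from 221 ± 11.9 to 203 ± 4.23 CPM (-0.12 ± 0.036, edgeR adjusted p = 0.00669), and its groups there met without overlap, at 207 to 232 CPM with vehicle and 197 to 207.1 CPM with cyclocreatine. An antisense gene shares 8.66% of the HYOU1 exon bases, and no source used here states whether strand was used in counting.

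DNAJB9 (ERdj4), a J-domain cochaperone of BiP that restrains IRE1, was a low-count gene, with 77 to 287 counts per library. In UT-7 it stood at 10.8, 13.2, 11.2 and 12.1 CPM with vehicle and 16.1, 13.8, 16.7 and 16.8 CPM with cyclocreatine, and the groups did not overlap. It rose there 1.34-fold (0.42 ± 0.11, edgeR adjusted p = 0.00169). Neither TF-1 (0.077 ± 0.11, edgeR adjusted p = 0.556; 0.15, edgeR adjusted p = 0.211 without TF-1 cyclocreatine replicate 1) nor UCSD-AML1 (-0.072 ± 0.14, edgeR adjusted p = 0.736) passed. Exons of THAP5 on the opposite strand cover 6.45% of its exon bases and those of PNPLA8 3.49%.

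SDF2L1, a stromal cell-derived factor 2-like protein that works with ER J-domain cochaperones, was the member that went down in all 3 lines. In UCSD-AML1 it stood at 23.3, 21.1, 22.6 and 25.1 CPM with vehicle and 13.4, 13.9, 12.6 and 13.4 CPM with cyclocreatine. UT-7 libraries gave 17.3, 17.4, 19.1 and 15.7 CPM with vehicle and 14.9, 12.3, 11.8 and 13.2 CPM with cyclocreatine, and TF-1 libraries 16.5, 13.1, 14.9 and 13.8 CPM with vehicle and 13.5, 9.995, 7.28 and 6.19 CPM with cyclocreatine. The groups were apart in UCSD-AML1 and UT-7 and overlapped in TF-1, where treated replicate 1 lay highest among the treated libraries. It fell 1.73-fold in UCSD-AML1 (-0.79 ± 0.13, edgeR adjusted p = 5.13e-06), 1.33-fold in UT-7 (-0.41 ± 0.13, edgeR adjusted p = 0.0111) and 1.59-fold in TF-1 (-0.67 ± 0.14, edgeR adjusted p = 1.14e-04). Without TF-1 cyclocreatine replicate 1, the TF-1 change was -0.92, edgeR adjusted p = 1.02e-10.

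PDIA4 (ERp72), a protein disulfide isomerase, had the largest log2 fold change of the 10 genes in TF-1 and in UT-7. In TF-1 it stood at 81.02, 80.2, 85.8 and 88.5 CPM with vehicle and 153, 149, 139.7 and 143 CPM with cyclocreatine. The UT-7 libraries held 155, 161, 153 and 158 CPM with vehicle and 221, 224, 234 and 224 CPM with cyclocreatine, and those of UCSD-AML1 74.6, 78.2, 82.4 and 69.3 CPM with vehicle and 77.7, 83.9, 81.8 and 84.7 CPM with cyclocreatine. The groups were far apart in TF-1 and UT-7 and overlapped in UCSD-AML1. It rose 1.74-fold in TF-1 (0.80 ± 0.045, edgeR adjusted p = 1.13e-17) and 1.44-fold in UT-7 (0.53 ± 0.043, edgeR adjusted p = 6.23e-13). The value in UCSD-AML1 was positive and did not pass (0.11 ± 0.047, edgeR adjusted p = 0.0631); it passed without vehicle replicate 3 (0.15), without cyclocreatine replicate 1 (0.13) and with that line fitted alone (0.12).

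XBP1, the transcription factor at the end of the IRE1 branch, showed the widest spread of responses. In UT-7 it stood at 115, 117, 117 and 114 CPM with vehicle and 141, 146, 138 and 144 CPM with cyclocreatine. In UCSD-AML1 it stood at 685, 662, 659 and 664 CPM with vehicle and 433, 455, 462 and 434 CPM with cyclocreatine. TF-1 had 190.0, 204, 204 and 194 CPM with vehicle and 186, 173, 179 and 178 CPM with cyclocreatine. No treated library overlapped a vehicle library in any line, with treated libraries above in UT-7 only. XBP1 rose 1.23-fold in UT-7 (0.30 ± 0.036, edgeR adjusted p = 7.79e-09), fell 1.5-fold in UCSD-AML1 (-0.58 ± 0.032, edgeR adjusted p = 2.45e-17) and fell 1.11-fold in TF-1 (-0.15 ± 0.034, edgeR adjusted p = 3.65e-04). The human genome holds 1 named XBP1 pseudogene, XBP1P1, and no source used here states how reads shared with it were counted.

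HERPUD1, a ubiquitin-like ER membrane protein that organises the degradation complex around HRD1, rose in UT-7 from 23.8 ± 0.140 to 29.9 ± 1.42 CPM (0.33 ± 0.074, edgeR adjusted p = 3.13e-04). Its UT-7 vehicle libraries were within 23.7 to 23.99 CPM, and the treated ones spanned 27.9 to 31.2 CPM. In TF-1 it fell from 37.5 ± 3.66 to 32.5 ± 2.74 CPM with overlapping groups (-0.20 ± 0.068, edgeR adjusted p = 0.0101), and that call was lost without TF-1 vehicle replicate 2 (-0.15, edgeR adjusted p = 0.0730) and with TF-1 fitted alone (edgeR adjusted p = 0.0702). UCSD-AML1 did not pass (-0.12 ± 0.076, edgeR adjusted p = 0.209).

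MANF and CRELD2 are small ER stress-responsive proteins that can be secreted. MANF fell in UCSD-AML1 from 58.9 ± 0.530 to 45.4 ± 0.732 CPM, with vehicle libraries at 58.2 to 59.4 CPM and treated ones at 44.7 to 46.4 CPM (-0.37 ± 0.063, edgeR adjusted p = 6.68e-06). It did not pass in UT-7 (0.076 ± 0.072, edgeR adjusted p = 0.420) or in TF-1 (0.038 ± 0.061, edgeR adjusted p = 0.623), where treated replicate 1 was highest at 75.9 CPM and the value without it was -0.064, edgeR adjusted p = 0.292. CRELD2 fell in UCSD-AML1 from 25.9 ± 1.04 to 21.2 ± 0.950 CPM with groups apart (-0.29 ± 0.089, edgeR adjusted p = 0.00844) and did not pass in UT-7 (-0.12 ± 0.099, edgeR adjusted p = 0.359).

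The CRELD2 call in TF-1 rested on few libraries. Its levels there were 11.8, 14.1, 14.1 and 14.1 CPM with vehicle and 19.9, 13.98, 13.7 and 16.6 CPM with cyclocreatine, and the groups overlapped. The test called it higher (0.25 ± 0.099, edgeR adjusted p = 0.0271). The call was lost without cyclocreatine replicate 1 (0.14, edgeR adjusted p = 0.202), without cyclocreatine replicate 4 (edgeR adjusted p = 0.0589) and without vehicle replicate 1 (edgeR adjusted p = 0.114). Other settings that lost it were library totals alone, the DESeq2 Wald test and TF-1 fitted alone. CRELD2 and ALG12, a mannosyltransferase gene on the opposite strand, share 168 exon bases (3.25% of those of CRELD2), and an ERSE match lay in the promoter window of each. Whether both windows hold the same match was not tested. ALG12 did not pass in any line (log2 fold changes of -0.19 in UT-7, -0.12 in TF-1 and 0.087 in UCSD-AML1).

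**Figure D3:**
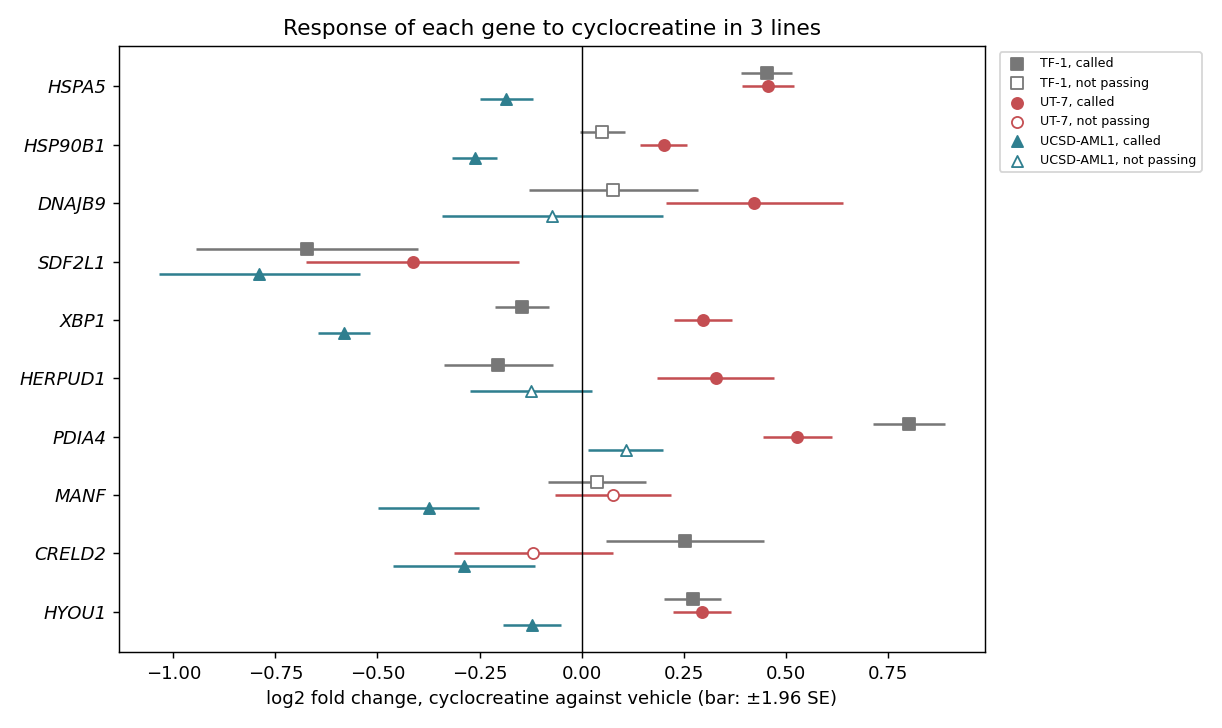
Log2 fold change of each of the 10 genes under cyclocreatine in TF-1 (squares), UT-7 (circles) and UCSD-AML1 (triangles), with bars of the approximate 95% interval and filled symbols for an edgeR adjusted p under 0.05. For XBP1 the 3 lines stand apart at -0.58, -0.15 and 0.30, while all 3 SDF2L1 symbols lie left of 0.

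Whether the lines responded differently was tested on the difference itself, the log2 fold change in the first line minus that in the second. Between UT-7 and UCSD-AML1, 8 of the 10 genes had a higher value in UT-7 and none a lower one (0 also at an unadjusted edgeR p under 0.05, with DESeq2 and with limma-voom), where 11.5% of all genes were called higher and 11.5% lower. The median difference was 0.45 (all genes 0.0060). XBP1 differed most (0.88 ± 0.048, edgeR adjusted p = 1.04e-16), then HSPA5 (0.64 ± 0.046, edgeR adjusted p = 1.66e-13). HSP90B1 (0.46 ± 0.041), HERPUD1 (0.45 ± 0.11), MANF (0.45 ± 0.096), PDIA4 (0.42 ± 0.064) and HYOU1 (0.42 ± 0.051) lay close together. DNAJB9 was called at 0.49 ± 0.18, edgeR adjusted p = 0.0384, and this call was lost with limma-voom (limma-voom adjusted p = 0.0674) and with library totals alone. It was also lost without any 1 of UT-7 vehicle replicates 1 and 3, UT-7 cyclocreatine replicates 1, 3 and 4, UCSD-AML1 vehicle replicate 3 and UCSD-AML1 cyclocreatine replicates 1 to 3. SDF2L1 (0.38 ± 0.18, edgeR adjusted p = 0.151) and CRELD2 (0.17 ± 0.13, edgeR adjusted p = 0.421) did not pass. This is the pair of lines whose opposite direction was known beforehand.

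TF-1 also differed from UCSD-AML1. There, 7 of the 10 genes had a higher value in TF-1 and none a lower one, which held at an unadjusted edgeR p under 0.05, with DESeq2 and with limma-voom (14.8% of all genes called higher, 14.3% lower), with a median difference of 0.40. PDIA4 (0.69 ± 0.065, edgeR adjusted p = 1.04e-10) and HSPA5 (0.64 ± 0.046, edgeR adjusted p = 1.17e-13) differed most, followed by CRELD2 (0.54 ± 0.13). DNAJB9, SDF2L1 and HERPUD1 did not pass, at 0.15, 0.12 and -0.081. Without TF-1 cyclocreatine replicate 1 these values were 0.22, -0.13 and -0.048, so the sign for SDF2L1 turned, and none passed. With library totals alone, 1329 of all genes were called higher and 2766 lower in this difference, against 2156 and 2086 with TMM, and the 7 calls among the 10 genes stayed at 7. The direction of the UCSD-AML1 response, which enters this difference, was known when the genes were listed. These counts therefore describe the difference and add no support.

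Between TF-1 and UT-7 the genes split. PDIA4 (0.27 ± 0.062, edgeR adjusted p = 9.32e-04) and CRELD2 (0.37 ± 0.14, edgeR adjusted p = 0.0434) had a higher value in TF-1, where 14.3% of all genes were called higher and 13.2% lower. HERPUD1 (-0.53 ± 0.10, edgeR adjusted p = 9.81e-05), XBP1 (-0.44 ± 0.049, edgeR adjusted p = 1.03e-08) and HSP90B1 (-0.15 ± 0.041, edgeR adjusted p = 0.00483) had a lower one. HSPA5 gave -0.0035 ± 0.046, edgeR adjusted p = 0.988, HYOU1 -0.022 ± 0.050, edgeR adjusted p = 0.804 and MANF -0.038 ± 0.094, edgeR adjusted p = 0.823. Without TF-1 cyclocreatine replicate 1 these were -0.014, -0.0055 and -0.14, and none passed. For HSPA5 the 95% interval of the difference ran from -0.093 to 0.086. The DNAJB9 difference, -0.35 ± 0.15, edgeR adjusted p = 0.0899, passed without TF-1 vehicle replicate 1 or without TF-1 cyclocreatine replicate 3 (-0.42 in each case). Without TF-1 cyclocreatine replicate 1 the CRELD2 difference did not pass (0.26, edgeR adjusted p = 0.124) and the SDF2L1 difference did (-0.51, edgeR adjusted p = 0.00629, against -0.26 ± 0.19, edgeR adjusted p = 0.350 with all libraries). The CRELD2 call was likewise lost without TF-1 vehicle replicate 1, TF-1 cyclocreatine replicate 4, any 1 of the 4 UT-7 vehicle libraries or UT-7 cyclocreatine replicate 3. With library totals alone, 1637 of all genes were called higher and 2312 lower, against 2089 and 1922. The 3 differences share groups and are not independent of each other. Each also holds the UT-7 or the UCSD-AML1 response, whose opposite direction was known beforehand.

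The lines also differed before treatment. In vehicle, XBP1 stood at 667 ± 11.7 CPM in UCSD-AML1, 198 ± 7.11 CPM in TF-1 and 116 ± 1.36 CPM in UT-7, and each step of that order passed. UCSD-AML1 was 5.77-fold above UT-7 and 3.37-fold above TF-1 (1.94e-39 and 9.74e-35 as edgeR adjusted p). After cyclocreatine the XBP1 libraries of UCSD-AML1, at 433 to 462 CPM, still lay above every library of the other lines. XBP1 is also a plasma cell factor. Of 9 plasma cell markers, 6 were under 1 CPM in UCSD-AML1 with vehicle, FCRL5 was at 0 counts in every library and TNFRSF17 had 2 counts over the 4 UCSD-AML1 vehicle libraries. Their summed level ran from 38.3 to 43.9 CPM there (42.4 to 48.6 CPM with cyclocreatine), and CD79A, a B-lineage signalling chain, made up 36.9 CPM of it with vehicle. In TF-1 the sum was 6.38 to 7.55 CPM and in UT-7 0.916 to 1.90 CPM. PRDM1 stood at 2.45 CPM with vehicle in UCSD-AML1, 1.26 CPM in TF-1 and 0.360 CPM in UT-7. It stood at 1.66 CPM with cyclocreatine in UCSD-AML1. MZB1 was also highest in UCSD-AML1 with vehicle (0.755 CPM). SDC1 was highest in TF-1 (2.50 CPM, against 1.07 CPM in UCSD-AML1), and IRF4 (0.0677 CPM) and POU2AF1 (0.0621 CPM) were lowest in UCSD-AML1. The part of these markers in the XBP1 level was not tested.

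The other 9 genes had orders of their own in vehicle. TF-1 was highest for HSPA5 (625 ± 13.03 CPM), HSP90B1 (742 ± 13.4 CPM), HYOU1 (331 ± 6.78 CPM), HERPUD1 (37.5 ± 3.66 CPM) and DNAJB9 (14.3 ± 1.68 CPM). PDIA4 was highest in UT-7, at 157 ± 3.64 CPM, with TF-1 at 83.9 ± 3.95 CPM and UCSD-AML1 at 76.1 ± 5.55 CPM. SDF2L1 (23.04 ± 1.65 CPM) and CRELD2 (25.9 ± 1.04 CPM) were highest in UCSD-AML1. MANF stood at 61.5 ± 2.76 CPM in TF-1 and 58.9 ± 0.530 CPM in UCSD-AML1, and at 28.2 ± 0.502 CPM in UT-7. DNAJB9 was lowest in UCSD-AML1, at 6.05 ± 0.947 CPM.

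Some neighbours in these orders did not pass the test. They were HYOU1 in UT-7 and UCSD-AML1 (edgeR adjusted p = 0.938), MANF in TF-1 and UCSD-AML1 (0.347), SDF2L1 in TF-1 and UT-7 (0.0696) and HERPUD1 in UT-7 and UCSD-AML1 (0.0641). The HERPUD1 libraries of that pair did not overlap, at 23.7 to 23.99 CPM in UT-7 and 20.5 to 22.9 CPM in UCSD-AML1. The SDF2L1 pair passed without TF-1 vehicle replicate 1 (-0.32) or UT-7 vehicle replicate 4 (-0.30) and with library totals alone (-0.33), and the HERPUD1 pair without UCSD-AML1 vehicle replicate 4 (0.18) and with library totals alone or DESeq2 size factors. Against UT-7, TF-1 was higher for 7 of the 10 genes and lower for 2 (41.0% and 38.7% of all genes). Against UCSD-AML1, TF-1 was higher for 6 and lower for 3 (40.6% and 43.3%), and UT-7 was higher for 3 and lower for 5 (40.0% and 41.5%). These counts are not read as particular to the 10 genes. The step between TF-1 and UT-7 for DNAJB9 was lost without TF-1 vehicle replicate 3 or 4, or UT-7 vehicle replicate 1 or 3, and the step between TF-1 and UCSD-AML1 for PDIA4 without UCSD-AML1 vehicle replicate 4.

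A further 9 lists covered the rest of the pathway, and their counts stand beside the shares of all genes. Those were 26.7% higher and 29.3% lower in TF-1, 22.5% and 23.3% in UT-7, and 19.1% and 21.3% in UCSD-AML1. Counts near these shares are not read as particular to a list. Of 12 sensors and their activators, 5 were called higher, 2 lower and 5 did not pass in TF-1, 6, 1 and 5 in UT-7, and 2, 4 and 6 in UCSD-AML1. The UT-7 count of 1 lower was 2 with library totals alone. NFYA, the DNA-contacting regulatory chain of NF-Y, rose in TF-1 from 94.8 ± 2.45 to 154 ± 10.99 CPM (0.70 ± 0.042, edgeR adjusted p = 8.71e-17) and also in UT-7 (0.47 ± 0.042) and UCSD-AML1 (0.22 ± 0.043). NFYB, its histone-fold partner, fell in TF-1 (-0.39 ± 0.072), UT-7 (-0.47 ± 0.074) and UCSD-AML1 (-0.37 ± 0.071). CREB3, an ER-anchored factor related to ATF6, rose in all 3 lines, by 0.57 ± 0.11 in UT-7, 0.66 ± 0.11 in TF-1 and 0.58 ± 0.098 in UCSD-AML1. CREB3L2 fell in TF-1 (-0.64 ± 0.061) and UCSD-AML1 (-0.31 ± 0.066) and did not pass in UT-7 (-0.032 ± 0.061).

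Genes on the PERK and ATF4 side were called lower more often than higher in TF-1. Of 17 tested genes of that arm and of the integrated stress response, 3 were called higher, 10 lower and 4 did not pass in TF-1 (median -0.45), 3, 5 and 9 in UT-7 (median -0.010), and 5, 6 and 6 in UCSD-AML1 (median 0.0055). With library totals alone, 1 was called higher in TF-1. The shares over all genes were 26.7% higher and 29.3% lower there. ATF5, a leucine zipper factor translated under stress, fell in TF-1 (-0.73 ± 0.061, edgeR adjusted p = 5.78e-13), UT-7 (-0.63 ± 0.053, edgeR adjusted p = 1.32e-12) and UCSD-AML1 (-0.60 ± 0.063, edgeR adjusted p = 6.55e-10). TRIB3, a pseudokinase target of ATF4, fell in TF-1 (-0.86 ± 0.054), UT-7 (-0.62 ± 0.064) and UCSD-AML1 (-0.17 ± 0.060, a call lost without UCSD-AML1 cyclocreatine replicate 3). PPP1R15A (GADD34), the phosphatase subunit that reverses PERK signalling, fell in TF-1 (-0.45 ± 0.048) and UT-7 (-0.60 ± 0.046) and rose in UCSD-AML1 (0.19 ± 0.059). DDIT3 (CHOP), a proapoptotic factor of this arm, rose in all 3 lines: from 5.53 ± 0.371 to 11.7 ± 0.732 CPM in UCSD-AML1 (1.08 ± 0.13, edgeR adjusted p = 2.63e-08), and by 0.96 ± 0.13 in TF-1 and 0.79 ± 0.11 in UT-7. None of its 3 differences between lines passed. SESN2, a stress-induced regulator of mTORC1, rose in UCSD-AML1 (0.45 ± 0.068) and UT-7 (0.34 ± 0.077) and fell in TF-1 (-0.19 ± 0.071), where the call was lost with TF-1 fitted alone and without TF-1 cyclocreatine replicate 1 or vehicle replicate 3.

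Degradation and export genes were counted in the same way. Of 26 genes of ER-associated degradation, 4 were called higher, 7 lower and 15 did not pass in TF-1, 7, 6 and 13 in UT-7, and 2, 12 and 12 in UCSD-AML1 (medians -0.0078, 0.014 and -0.12). The UT-7 counts lay near the shares of all genes there (22.5% higher, 23.3% lower). So did the 7 lower in TF-1 (29.3%), and none of these is read as particular to the list. With library totals alone the TF-1 counts were 2 higher and 12 lower, and with TF-1 fitted alone 4 were lower. The ubiquitin-conjugating enzyme gene UBE2J1 fell in UCSD-AML1 (-0.36 ± 0.042) and TF-1 (-0.14 ± 0.042, lost with TF-1 fitted alone), with -0.052 ± 0.042 in UT-7. The mannosidase-like EDEM1 also fell in UCSD-AML1 (-0.31 ± 0.046) and TF-1 (-0.21 ± 0.047), with 0.043 ± 0.050 in UT-7. EDEM2 rose in UCSD-AML1 (0.53 ± 0.067), TF-1 (0.47 ± 0.055) and UT-7 (0.43 ± 0.072). FAF2, an anchor for the VCP segregase, rose in TF-1 (0.51 ± 0.042) and UT-7 (0.37 ± 0.040) and did not pass in UCSD-AML1 (0.087 ± 0.040). Of 29 genes of transport between ER and Golgi, 18 were called higher and 2 lower in UT-7 (9 not passing, median 0.18), 13 and 7 in TF-1 (9 not passing, median 0.10), and 4 and 13 in UCSD-AML1 (12 not passing, median -0.090). The difference between UT-7 and UCSD-AML1 was called higher for 16 of the 29 and lower for 1, against 11.5% of all genes in each direction. With library totals alone the UT-7 count of 2 lower was 5. The 1 lower in the difference was 0 with the replicate block, and also without UT-7 vehicle replicate 1 or 2, UT-7 cyclocreatine replicate 2, 3 or 4, or any 1 of UCSD-AML1 vehicle replicates 1 to 3 and UCSD-AML1 cyclocreatine replicates 1 to 3.

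SEC13, a coat protein of COPII vesicles, rose in TF-1 (0.72 ± 0.044, edgeR adjusted p = 1.21e-16), UT-7 (0.70 ± 0.048, edgeR adjusted p = 5.19e-15) and UCSD-AML1 (0.37 ± 0.045, edgeR adjusted p = 2.37e-08). SEC24D, a cargo adaptor of the same coat, rose in UT-7 from 59.4 ± 2.52 to 96.5 ± 4.04 CPM (0.70 ± 0.051) and also in TF-1 (0.33 ± 0.048), and fell in UCSD-AML1 (-0.32 ± 0.055). SAR1A, the GTPase that starts the coat, fell in UCSD-AML1 (-0.30 ± 0.045) and TF-1 (-0.13 ± 0.042, lost without TF-1 vehicle replicate 2), with -0.088 ± 0.048 in UT-7. The KDEL receptor KDELR1, which retrieves escaped chaperones, rose in UCSD-AML1 (0.26 ± 0.039), UT-7 (0.32 ± 0.039) and TF-1 (0.33 ± 0.038).

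Folding enzymes beside the 10 genes were counted next. Of 19 disulfide isomerases and oxidases, 10 were called higher, 4 lower and 5 did not pass in TF-1, 10, 6 and 3 in UT-7, and 5, 6 and 8 in UCSD-AML1. All genes stood at 26.7% higher and 29.3% lower in TF-1. The TF-1 count of 4 lower was 7 with library totals alone and 1 with TF-1 fitted alone. The UT-7 count of 10 was 6 without UT-7 vehicle replicate 2 and 5 with library totals alone. ERP29, an ER protein of the disulfide isomerase family that lacks the active cysteines, rose in TF-1 (0.58 ± 0.047), UT-7 (0.36 ± 0.049) and UCSD-AML1 (0.58 ± 0.047). QSOX1, a sulfhydryl oxidase, fell in UT-7 (-0.38 ± 0.048) and UCSD-AML1 (-0.27 ± 0.046). In TF-1 its value of -0.097 ± 0.049 did not pass, though it did without TF-1 vehicle replicate 1 and with DESeq2 size factors, library totals alone or the DESeq2 Wald test. In TF-1, P4HB, the archetypal disulfide isomerase, rose from 756 ± 14.9 to 949.7 ± 42.7 CPM (0.33 ± 0.035), and it rose in UT-7 (0.16 ± 0.035) and UCSD-AML1 (0.15 ± 0.035).

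Of 18 cochaperones and prolyl isomerases, 8 were called higher and 1 lower in TF-1, 5 and 0 in UT-7, and 4 and 4 in UCSD-AML1; 9, 13 and 10 did not pass. The UT-7 count of 0 lower was also 0 with DESeq2 and limma-voom, and at an unadjusted edgeR p under 0.05. The TF-1 count of 1 lower was 2 without TF-1 cyclocreatine replicate 3 or 4, with limma-voom and with DESeq2 size factors, and 3 with library totals alone. The UT-7 count of 5 was 3 without UT-7 cyclocreatine replicate 1 or 4 and 9 with UT-7 fitted alone. SIL1, a nucleotide exchange factor of BiP, rose in TF-1 from 36.2 ± 2.43 to 66.2 ± 8.76 CPM (0.87 ± 0.069) and in UT-7 (0.49 ± 0.079), and did not pass in UCSD-AML1 (0.089 ± 0.072). DNAJC1, a membrane-bound J-domain protein, rose in TF-1 (0.64 ± 0.050) and UCSD-AML1 (0.59 ± 0.048). Its rise in UT-7 (0.15 ± 0.060) was lost with library totals alone, the DESeq2 Wald test, no filter or the replicate block, and without UT-7 vehicle replicate 1 or 2 or UT-7 cyclocreatine replicate 1 or 4. CNPY3, a GRP94 partner, rose in TF-1 (0.53 ± 0.069) and UCSD-AML1 (0.41 ± 0.068), and in UT-7 (0.21 ± 0.075) with a call that was lost without UT-7 vehicle replicate 3 or UT-7 cyclocreatine replicate 1 or 4.

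Protein entry and glycosylation made up the remaining folding lists. Of 21 genes of the calnexin cycle and N-glycosylation, 11 were called higher and 4 lower in TF-1, 9 and 6 in UT-7, and 5 and 7 in UCSD-AML1. The TF-1 count of 4 lower was 8 with library totals alone, and 2 without TF-1 vehicle replicate 4 or with TF-1 fitted alone. STT3A, a catalytic chain of oligosaccharyltransferase, rose in TF-1 (0.31 ± 0.032) and UT-7 (0.17 ± 0.032), and its small subunit DAD1 fell in TF-1 (-0.24 ± 0.045), UT-7 (-0.42 ± 0.044) and UCSD-AML1 (-0.28 ± 0.047). STT3A did not pass in UCSD-AML1 (0.074 ± 0.032), though it did there with the DESeq2 Wald test, with limma-voom, with that line fitted alone and without UCSD-AML1 vehicle replicate 3. DPAGT1, which starts the lipid-linked glycan, rose in TF-1 (0.31 ± 0.053), UT-7 (0.43 ± 0.052) and UCSD-AML1 (0.49 ± 0.055). Of 23 translocon and signal peptide genes, 16 were called higher and 4 lower in TF-1 (10 higher with library totals alone), 9 and 5 in UT-7, and 3 and 6 in UCSD-AML1 (6 higher with that line fitted alone). SRP68 of this list was called higher everywhere, by 0.24 ± 0.038 in UCSD-AML1, 0.29 ± 0.039 in UT-7 and 0.43 ± 0.039 in TF-1. SSR1, a subunit of the translocon-associated complex, rose in TF-1 (0.24 ± 0.036) and UT-7 (0.26 ± 0.037) and fell in UCSD-AML1 (-0.22 ± 0.037). SRP68 had a smaller adjusted p than SSR1 in each line.

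Of 17 tested genes of the ER calcium and redox store, 8 were called higher and 6 lower in TF-1, 7 and 4 in UT-7, and 4 and 4 in UCSD-AML1. The 4 lower in UT-7 lay near the share of all genes there (23.3%). So did both UCSD-AML1 counts (19.1% higher, 21.3% lower), and none of these is read as particular to the list. The UT-7 count of 7 was 4 without UT-7 vehicle replicate 4 and 4 without UT-7 cyclocreatine replicate 4. ATP2A2 (SERCA2), the pump that fills the store, fell in UT-7 (-0.21 ± 0.035) and UCSD-AML1 (-0.23 ± 0.035). Its fall in TF-1 (-0.11 ± 0.035) was lost with TF-1 fitted alone and without its cyclocreatine replicate 1 (-0.065). RCN3, a calcium-binding ER protein, rose in UCSD-AML1 from 4.74 ± 0.502 to 13.2 ± 0.809 CPM (1.47 ± 0.11, edgeR adjusted p = 1.63e-13), and it rose in UT-7 (0.48 ± 0.091) and TF-1 (0.36 ± 0.062). TMBIM6, an ER membrane protein that limits calcium release and cell death, rose in TF-1 (0.27 ± 0.031) and UT-7 (0.12 ± 0.031) and did not pass in UCSD-AML1 (0.018 ± 0.032).

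**Figure D4:**
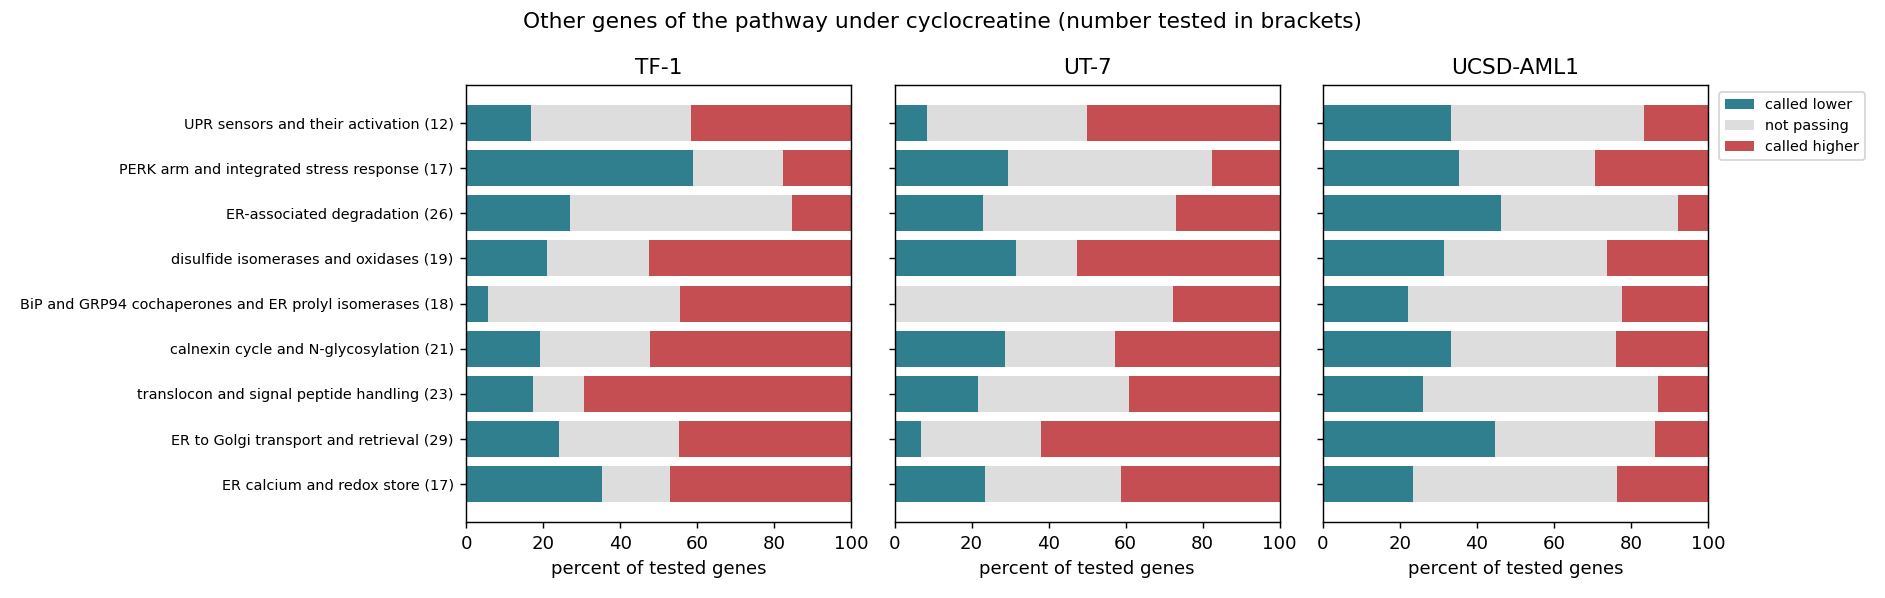
Share of the tested genes in each of 9 pathway lists called lower, not passing or called higher under cyclocreatine, in TF-1, UT-7 and UCSD-AML1 (percent of the number in brackets). Transport between ER and Golgi has 18 of 29 genes called higher in UT-7 and 13 of 29 called lower in UCSD-AML1.

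Other genes with the same promoter letters offered a group defined by sequence and not by response, though it was added after the values were seen. It shares CALR, CANX, PDIA6 and NUCB1 with the lists above. Outside the 10 genes, 37 genes held ERSE or ERSE-II in a window, 28 of them were in the count files under the same symbol and 21 were tested. In TF-1, 10 were called higher and 4 lower (median 0.12), in UT-7 9 and 3 (median 0.099), and in UCSD-AML1 6 and 3 (median -0.014). Of all genes, 26.7% were called higher and 29.3% lower in TF-1, 22.5% and 23.3% in UT-7, and 19.1% and 21.3% in UCSD-AML1. The TF-1 count of 4 was 7 with library totals alone, 1 with TF-1 fitted alone and 2 without TF-1 cyclocreatine replicate 2 or 4, and the UCSD-AML1 count of 3 was 5 with that line fitted alone. The difference between UT-7 and UCSD-AML1 was called higher for 8 and lower for 1 of the 21, against 11.5% of all genes in each direction. The 8 became 5 with library totals alone, and also without UT-7 cyclocreatine replicate 1 or 4, UCSD-AML1 vehicle replicate 2 or UCSD-AML1 cyclocreatine replicate 4. The 1 became 2 without UCSD-AML1 vehicle replicate 1, and 0 with the replicate block and without UT-7 vehicle replicate 2, UT-7 cyclocreatine replicate 3 or 4, UCSD-AML1 vehicle replicate 3 or UCSD-AML1 cyclocreatine replicate 3.

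Genes of that group named here were picked for what they encode, after the values were seen. CALR, the lectin chaperone calreticulin, went from 1891 to 2264 CPM in TF-1 (0.26 ± 0.034, edgeR adjusted p = 2.52e-08), from 1794 to 2068 CPM in UT-7 (0.21 ± 0.034, edgeR adjusted p = 3.44e-06) and from 827 to 745 CPM in UCSD-AML1 (-0.15 ± 0.034, edgeR adjusted p = 4.59e-04). SERP1, which stabilises membrane proteins at the translocon, rose in TF-1 (0.12 ± 0.034) and UT-7 (0.085 ± 0.034) and fell in UCSD-AML1 (-0.16 ± 0.034). The TF-1 call of SERP1 was lost with library totals alone. The UT-7 call was lost without any of UT-7 vehicle replicates 1 to 4 or UT-7 cyclocreatine replicates 1, 2 and 4, each left out alone, and with DESeq2 size factors, library totals alone, the DESeq2 Wald test, no filter and the replicate block. PDIA6, a disulfide isomerase that attenuates the sensors, rose in TF-1 (0.37 ± 0.032), in UT-7 (0.21 ± 0.035) and, by less, in UCSD-AML1 (0.084 ± 0.033, edgeR adjusted p = 0.0355). The UCSD-AML1 call was lost without UCSD-AML1 vehicle replicates 1, 2 or 4 or cyclocreatine replicates 1, 3 or 4, with no filter and with the replicate block. EIF2A, an initiation factor outside the ER, rose in TF-1 (0.69 ± 0.036), UT-7 (0.49 ± 0.037) and UCSD-AML1 (0.22 ± 0.036). With all libraries and TMM, CANX rose in TF-1 (0.12 ± 0.038) and UT-7 (0.10 ± 0.038) and did not pass in UCSD-AML1 (-0.083 ± 0.039). FICD went the other way in TF-1, from 0.921 to 0.351 CPM (-1.35 ± 0.35, edgeR adjusted p = 0.00112). It did not pass in UT-7 (0.34 ± 0.22) or UCSD-AML1 (-0.32 ± 0.23).

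How far the 10 genes moved together was described by Pearson's r over the 24 libraries, after each gene's log2 CPM was centred on its line. HSP90B1 followed the mean of the other 9 most closely (r = 0.94), then MANF (0.79), XBP1 (0.76), HSPA5 (0.67) and HYOU1 (0.65). CRELD2 (0.36), DNAJB9 (0.35), HERPUD1 (0.33) and PDIA4 (0.18) followed it less, and SDF2L1 did not (-0.11). The libraries share line and treatment group, so they are not independent points. Centring keeps the response to cyclocreatine, whose direction in UT-7 and UCSD-AML1 was known when the genes were listed. The r values partly restate that choice and add no support. Within UCSD-AML1 alone SDF2L1 stood at 0.93 and PDIA4 at -0.54, and within UT-7 alone SDF2L1 stood at -0.81. Within TF-1 alone XBP1 stood at -0.41, HERPUD1 at -0.69, SDF2L1 at -0.63 and DNAJB9 at -0.15, so the pooled values of XBP1, HERPUD1 and DNAJB9 did not hold in that line. CRELD2 stood at -0.35 within UT-7. HSP90B1 lay between 0.83 and 0.98 within each line.

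Outside the 10 genes, 8812 genes with at least 5 CPM in each line were ranked by the same measure against the mean of the 10. VCP, the segregase that pulls proteins from the ER for degradation, came first (r = 0.90), followed by SERP1 (0.90), the ubiquitin-conjugating enzyme gene UBE2D3 (0.88) and ARL6IP1, an ER-shaping membrane protein gene (0.87). RARS, an arginyl-tRNA synthetase gene, SMARCE1, a chromatin remodelling gene, DLGAP5, a mitotic spindle gene, and VTA1, an endosomal sorting gene, had r between 0.85 and 0.86. Of these, DLGAP5 had the widest responses, with log2 fold changes of 0.41 in UT-7, -0.35 in UCSD-AML1 and -0.0057 in TF-1, and VCP gave 0.17, -0.17 and -0.012. Such likeness is a description of these 24 libraries. The mean of the 10 genes carries the response known when they were listed, so the ranking has the same limit.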

How the data were processed

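RNA extracted with RNeasy columns was sequenced on an Illumina HiSeq, per the labels' protocols. The authors deposited raw counts per RefSeq gene symbol, 1 file per library. Per the submitters' processing notes, FastQC, TopHat2 and RSEM were used with GRCh37 and hg19; the sources used here give neither their versions, order and roles nor any use of strand. Reads shared with overlapping or near-identical genes may therefore be split in unknown ways.

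Libraries were grouped by their labels. Genes were kept by filterByExpr (smallest count 10, smallest total 15), which left 14588 of 25728, and TMM scaling followed. A model of group means over all 24 libraries was fitted in edgeR 4.0.16 (R 4.3.3, limma 3.58.1) with robust quasi-likelihood F tests and Benjamini-Hochberg adjustment within each of 9 contrasts: the effect in each line, the 3 differences between those effects and the 3 differences between vehicle levels. The SE, the absolute log2 fold change divided by √F, is approximate. Replicates were not copies: counts within each of 36 pairs differed beyond counting noise (chi-square per degree of freedom 1.29 to 19.3).

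The 10 genes and the pathway lists were chosen with earlier results of these data known. Named genes of a list come from up to 3 per line with the smallest p among called genes of at least 1 CPM. Not all genes under that rule are named in the text. Genes named for likeness are the 8 highest r. The genes with shared promoter letters, and those named among them, were added after the values were seen. Promoter sequences are from RefSeq on GRCh38.p14, exon overlaps from GENCODE on GRCh38, and no position was carried to the build of the counts. Alternatives were DESeq2 size factors, library totals alone, the DESeq2 1.42.0 Wald test, limma-voom, no filter, each line fitted alone, a replicate block and each library left out. Plots used Python 3.11.15 and matplotlib 3.10.9.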

Additional observations from a re-analysis of the deposited data

Results flagged for a closer look

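In 1 of 60 gene and group combinations, a library lay apart from its 3 group mates by Dixon's ratio: CRELD2 in TF-1 vehicle replicate 1, at 11.8 CPM against 14.1 CPM in each of the others. Chance flags about 1 in 20 such groups.

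There were 20 responses that differed between lines in the edgeR test of the difference of log2 fold changes. In TF-1 minus UT-7 they were HSP90B1 (-0.15), XBP1 (-0.44), HERPUD1 (-0.53), PDIA4 (0.27) and CRELD2 (0.37). In TF-1 minus UCSD-AML1 they were HSPA5 (0.64), HSP90B1 (0.31), XBP1 (0.43), PDIA4 (0.69), MANF (0.41), CRELD2 (0.54) and HYOU1 (0.39). In UT-7 minus UCSD-AML1 they were HSPA5 (0.64), HSP90B1 (0.46), DNAJB9 (0.49), XBP1 (0.88), HERPUD1 (0.45), PDIA4 (0.42), MANF (0.45) and HYOU1 (0.42). XBP1, HSP90B1 and PDIA4 differed in all 3 pairs of lines, and SDF2L1 did not pass in any pair. Of all genes, 14.3% were called higher and 13.2% lower in TF-1 minus UT-7. The shares were 14.8% and 14.3% in TF-1 minus UCSD-AML1, and 11.5% and 11.5% in UT-7 minus UCSD-AML1. The opposite direction in UT-7 and UCSD-AML1 was known when the genes were listed, so these differences add no support.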

How the results depend on the processing

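Of 1530 recomputed values of the 10 genes, 1480 kept their side of the threshold, 38 lost a call, 12 gained one and 0 reversed a call. Changes of sign between values that did not pass count among the 1480. Of 612 counts over the 10 genes or all genes, 597 stayed within 1.5 times. In UCSD-AML1, the 0 genes called higher became 1 (PDIA4, edgeR adjusted p = 0.0108) with that line fitted alone and ran from 0 to 1 with a library left out. In TF-1 minus UT-7, the 2 genes called higher became 1 with library totals alone, with the DESeq2 Wald test and with the replicate block, and ran from 1 to 2 with a library left out. All genes called higher in TF-1 minus UCSD-AML1 went from 2156 to 1329 with library totals alone. Of 2220 list counts, 2042 stayed within 1.5 times. The cause of these shifts was not tested. Whether replicate numbers pair the libraries stayed unsettled, as the correlations were weak. Those of same-numbered deviations ran from -0.048 to 0.072. Of 12 libraries, 3 correlated best with their own number, all of them in UCSD-AML1. The block moved the CRELD2 effect in TF-1 to 0.24 and the UT-7 minus UCSD-AML1 difference of DNAJB9 to 0.49, neither then passing. DNAJB9, SDF2L1 and CRELD2, with the fewest counts, had the widest SEs.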
